A study of Mus musculus with 24 samples.

Results

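The H3K4me3 peaks described here are noncoding-only promoters, regions of the mouse genome at which a long noncoding RNA starts and no protein-coding gene does. They were taken from the list of 17993 peak regions counted in every library, by position alone: a region had to be narrower than 4500 bp, lie on chromosomes 1 to 19, overlap the transcription start site (TSS) of a gene of type lincRNA, antisense or processed_transcript in GENCODE M1 on mm9, and have no protein-coding TSS inside it or within 1000 bp. The rule gave 274 regions at 266 different genes, 166 of them at lincRNA genes, 106 at processed_transcript genes and 2 at both, while no gene has the type antisense in that annotation. Of 1056 narrow regions at a noncoding TSS, 754 also overlapped a protein-coding TSS and 28 had one within 1000 bp outside, so most noncoding start sites in the list shared or adjoined a coding promoter.

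H3K4me3 was measured in the cerebral cortex of adult C57BL/6 mice of 2 lines that both carry FLAG-tagged histone H2B at the Rosa26 locus under the CAG promoter. In the Rosa CAG-H2B-FLAG line (Rosa H2B-FLAG), recombination by Vasa-Cre had made expression of the tag ubiquitous. The paper reports it in almost all cortical cells, glia included. How evenly tChIP-Seq recovered the cell types was not tested. In the Rosa26 CAG-floxed-pA-H2B-FLAG/ CaMKCreERT2 line (Camk2a H2B-FLAG), the tag is switched on by tamoxifen, given to young adult double-heterozygous males a month before sampling, and only where the Camk2a promoter drives CreERT2, that is, in Camk2a-positive neurons, which in the cortex are mostly excitatory. Single ChIP-Seq precipitated H3K4me3 from the whole lysate and tChIP-Seq first precipitated FLAG and then H3K4me3 from the eluate. Each of the 4 groups (2 lines by 2 kinds of ChIP-Seq) had 3 libraries, each from a lysate of pooled tissue of 2 animals. The sources do not give tamoxifen for the Rosa H2B-FLAG mice, so line and tamoxifen cannot be told apart.

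Long noncoding RNAs are transcripts without a long open reading frame, many of them spliced and polyadenylated like mRNAs. Some act in the nucleus or in cis on neighbouring genes, some serve mainly as hosts from whose introns microRNAs or small nucleolar RNAs (snoRNAs) are processed, and for most no function is known. H3K4me3 marks nucleosomes at active or poised start sites of both coding and noncoding genes, and many noncoding genes are used in few cell types.

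The windows below show the start sites at both ends of the comparison of the lines, 4 promoters with more H3K4me3 in Camk2a H2B-FLAG tChIP-Seq and 4 with less, from 150 bases before to 50 bases after the TSS on mm9, read 5′ to 3′ on the strand of the gene, with each CpG in capitals. They are given because the CpG content of the regions is set against the calls below.
A830036E02Rik (chr11:99278412-99278611, plus strand): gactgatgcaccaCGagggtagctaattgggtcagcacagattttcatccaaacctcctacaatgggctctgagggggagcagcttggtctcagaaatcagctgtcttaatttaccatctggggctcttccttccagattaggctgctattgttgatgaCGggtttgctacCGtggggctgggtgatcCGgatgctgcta
Gm16950 (chr13:10358575-10358774, plus strand): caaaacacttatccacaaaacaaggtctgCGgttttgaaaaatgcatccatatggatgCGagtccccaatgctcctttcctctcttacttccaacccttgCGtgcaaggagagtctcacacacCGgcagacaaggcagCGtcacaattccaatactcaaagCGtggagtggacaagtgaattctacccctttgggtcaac
Meg3 (chr12:110780083-110780282, plus strand): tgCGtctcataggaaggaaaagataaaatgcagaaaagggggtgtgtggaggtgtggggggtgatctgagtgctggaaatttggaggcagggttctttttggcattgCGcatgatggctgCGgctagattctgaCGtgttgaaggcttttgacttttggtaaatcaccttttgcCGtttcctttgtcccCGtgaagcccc
Miat (chr5:112657919-112658118, minus strand): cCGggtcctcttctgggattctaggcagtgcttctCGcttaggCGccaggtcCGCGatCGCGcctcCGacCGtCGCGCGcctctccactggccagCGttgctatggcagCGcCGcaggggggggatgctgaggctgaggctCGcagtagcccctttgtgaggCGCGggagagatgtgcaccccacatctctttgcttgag
D230004N17Rik (chr9:41282870-41283069, plus strand): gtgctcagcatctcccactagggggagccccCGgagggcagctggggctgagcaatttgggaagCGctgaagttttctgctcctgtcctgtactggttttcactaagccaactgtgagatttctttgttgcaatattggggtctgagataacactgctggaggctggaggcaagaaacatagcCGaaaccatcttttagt
Nkx2-2as (chr2:147009669-147009868, plus strand): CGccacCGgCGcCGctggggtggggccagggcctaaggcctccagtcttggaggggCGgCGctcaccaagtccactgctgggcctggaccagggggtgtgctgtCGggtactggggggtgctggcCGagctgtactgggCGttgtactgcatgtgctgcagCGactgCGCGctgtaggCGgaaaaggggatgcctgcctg
Gm16046 (chr17:13820445-13820644, minus strand): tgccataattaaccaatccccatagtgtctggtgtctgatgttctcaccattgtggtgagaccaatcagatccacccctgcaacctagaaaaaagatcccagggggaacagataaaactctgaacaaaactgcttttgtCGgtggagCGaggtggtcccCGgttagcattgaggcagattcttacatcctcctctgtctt
Sox2ot (chr3:34564015-34564214, plus strand): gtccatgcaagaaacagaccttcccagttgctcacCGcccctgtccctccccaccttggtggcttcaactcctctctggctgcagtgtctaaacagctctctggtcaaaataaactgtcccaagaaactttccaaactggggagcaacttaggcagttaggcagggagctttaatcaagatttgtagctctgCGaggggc

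The window of Miat held 18 CpGs and that of Nkx2-2as 13, whereas the windows of A830036E02Rik, Gm16950, Meg3, D230004N17Rik, Gm16046 and Sox2ot held between 2 and 6. Promoters of both directions are thus found among the CpG-poor windows. A window need not match its region. Over the whole region, the ratio of observed to expected CpG was 0.450 at Miat and 0.676 at Sox2ot. This puts Miat in the lowest (under 0.506) and Sox2ot in the highest (over 0.655) of the 3 classes used below. In 250 bases before to 50 after the TSS, the letters TATAAA occurred on either strand in 6.93% of the 274 windows and in 4.73% of 11869 windows of protein-coding promoters of the same width limit and chromosomes (narrow protein-coding promoters hereafter). TGACGTCA occurred in 4.01% and 3.1%, TGANTCA in 5.47% and 3.85%, and CACGTG in 9.12% and 9.29%, which describes letters only, not binding sites.

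Genes of 19 of the 274 regions hold an annotated microRNA on the same strand and genes of 14 hold a snoRNA. Mature sequences were found in RefSeq (GRCm38.p6) for 10 of 24 microRNA names. Those of the hosts described below are printed with the seed, bases 2 to 8, in capitals, so that products of one host can be compared by seed: miR-29b-3p and miR-29c-3p share the seed AGCACCA, and miR-132-3p and miR-212-3p share AACAGUC.
mmu-miR-29b-3p: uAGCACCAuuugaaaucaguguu
mmu-miR-29c-3p: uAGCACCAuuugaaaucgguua
mmu-miR-132-3p: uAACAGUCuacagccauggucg
mmu-miR-212-3p: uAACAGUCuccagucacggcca
mmu-miR-135a-5p: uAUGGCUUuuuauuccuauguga
mmu-miR-770-5p: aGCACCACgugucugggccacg

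Noncoding-only promoters were narrower and weaker than protein-coding ones. Their median width was 1400.5 bp against 2034 bp for the 11869 narrow protein-coding promoters, and the median level over the 12 libraries was 16.5 CPM per kb (CPM, counts scaled to a common library size) against 29.5. Per region, the median of the counts summed over all libraries was 1066 against 2960, so the precision for a single region is lower here, and 233 of the 274 had at least 10 counts in every library while none had a library at 0. GC content was alike, with medians of 53.4% and 54.3%, and the ratio of observed to expected CpG was 0.570 against 0.612.

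The label noncoding holds for most but not all of these genes in a later annotation. By identifier or name, 195 of the 274 were matched to a RefSeq gene, of which 143 are lncRNA genes, 1 is an antisense RNA, 18 are pseudogenes (15 of them transcribed), 1 is a miscellaneous RNA and 32 are protein-coding, among them Usp35, Spata5l1 and Gm11837. Without these 32, the counts given below for the line comparison in tChIP-Seq become 38 higher and 34 lower in place of 41 and 40. The regions of 2610005L07Rik and Speer7-ps1 are at genes that RefSeq classes as transcribed pseudogenes, so reads of near-identical copies elsewhere could be counted there and both are uncertain.

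Total counts per library ranged from 1457261 to 1828371 in Rosa H2B-FLAG tChIP-Seq, from 2709729 to 3049130 in Camk2a H2B-FLAG tChIP-Seq, and from 4063200 to 8644574 in single ChIP-Seq. As a check of the tissue, promoters of excitatory neuron genes (Camk2a, Slc17a7, Neurod6 and Nrgn) were higher in Camk2a than in Rosa H2B-FLAG tChIP-Seq at 4 of 4 regions, with summed levels of 730.0 to 783 against 215 to 239 CPM. Those of endothelial genes were lower at 5 of 5 regions, with 36.8 to 46.4 against 196 to 199 CPM, those of astrocytes were lower at 4 and higher at 1 of 5, with 209.6 to 219 against 336 to 371 CPM, those of oligodendrocytes were lower at 4 and higher at 1 of 5, with 161 to 180.1 against 178 to 193 CPM, and those of inhibitory neurons were lower at 2 of 4, with 50.8 to 54.8 against 82.0 to 99.0 CPM. No region of the list lay at a TSS of the 6 microglia genes, and no marker region was at 0. In single ChIP-Seq, excitatory sums were 501 to 511 CPM in Rosa and 577 to 609 CPM in Camk2a. Oligodendrocyte sums were 262 to 267 and 233 to 245 CPM. Endothelial sums (147 to 160 and 151 to 161) overlapped. So did those of astrocytes (333 to 348 and 329 to 364) and inhibitory neurons (65.6 to 66.6 and 64 to 71.8). Rosa tChIP-Seq thus lay below Rosa single ChIP-Seq for excitatory and oligodendrocyte genes and above it for endothelial and inhibitory ones. What part differences in cell content have in the values at noncoding-only promoters was not tested, and in these pooled tissues fewer cells with the mark and less of the mark per cell cannot be told apart. No noncoding-only promoter lay within 500 kb of Camk2a, of Ddx4 (Vasa) or of the genes beside Rosa26, Setd5 and Thumpd3.

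The first question was whether FLAG purification or line altered how much of the H3K4me3 signal lay at noncoding start sites as a whole. The 274 regions held 0.839%, 0.835% and 0.840% of the counts of the Rosa H2B-FLAG single ChIP-Seq libraries and 0.930%, 0.928% and 0.927% of those of the tChIP-Seq libraries. In Camk2a H2B-FLAG they held 0.865%, 0.879% and 0.864% without FLAG selection and 0.916%, 0.919% and 0.923% with it. The groups did not overlap in any of the 4 comparisons. The share in tChIP-Seq was above single ChIP-Seq by 0.0904 percentage points in Rosa H2B-FLAG and by 0.04998 in Camk2a H2B-FLAG, Camk2a was above Rosa by 0.0315 in single ChIP-Seq, and the difference of Camk2a from Rosa in tChIP-Seq was -0.00888. The exact two-sided permutation test of 3 against 3 libraries gave p = 0.1 in each of the 4 comparisons, raw and adjusted, which is the smallest value it can give.

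**Figure D1:**
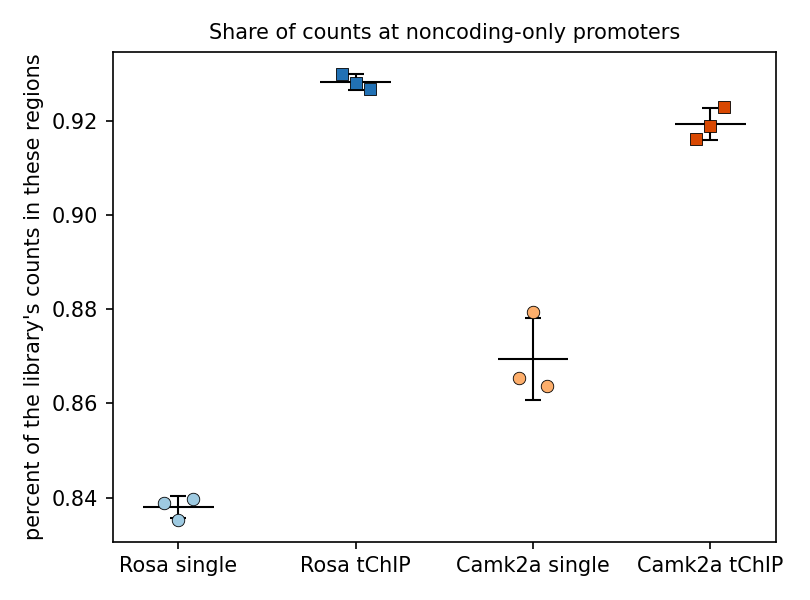
Percent of each library's counts that lay in the 274 noncoding-only promoters, for the 4 groups of 3 libraries; points are libraries, bars are the mean and SD (n = 3), and the axis does not start at 0. Both tChIP-Seq groups lie between 0.916% and 0.930%, above all single ChIP-Seq libraries, which lie between 0.835% and 0.879%.

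Comparing Camk2a with Rosa H2B-FLAG in tChIP-Seq asks which noncoding promoters carry more or less of the mark in the tagged neurons than in the tagged whole cortex. Of the 274 promoters, 41 were higher and 40 lower at an adjusted p under 0.01 (edgeR, 3 against 3 libraries), which is 15.0% and 14.6%, beside 17.0% and 14.6% of all 17993 regions. The median log2 fold change (log2 ratio hereafter) of the 274 was -0.002 beside -0.02 at narrow protein-coding promoters and -0.003 over all regions. These shares are near the background. The called log2 ratios ranged from 0.29 to 1.53 among the higher, 19 of them over 1, and from -0.39 to -3.20 among the lower, 21 of them beyond -1. The Wald test of DESeq2 called 26 higher and 29 lower at the same threshold. Shares of all regions called by DESeq2 are not given here, so its counts in this text cannot be set against a background. The 3 libraries of one line all lay above the 3 of the other at 63 promoters (23.0%, beside 24.8% of all regions) and below at 69 (25.2%, beside 23.6%), and 79 of the 81 called promoters were among these.

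**Figure D2:**
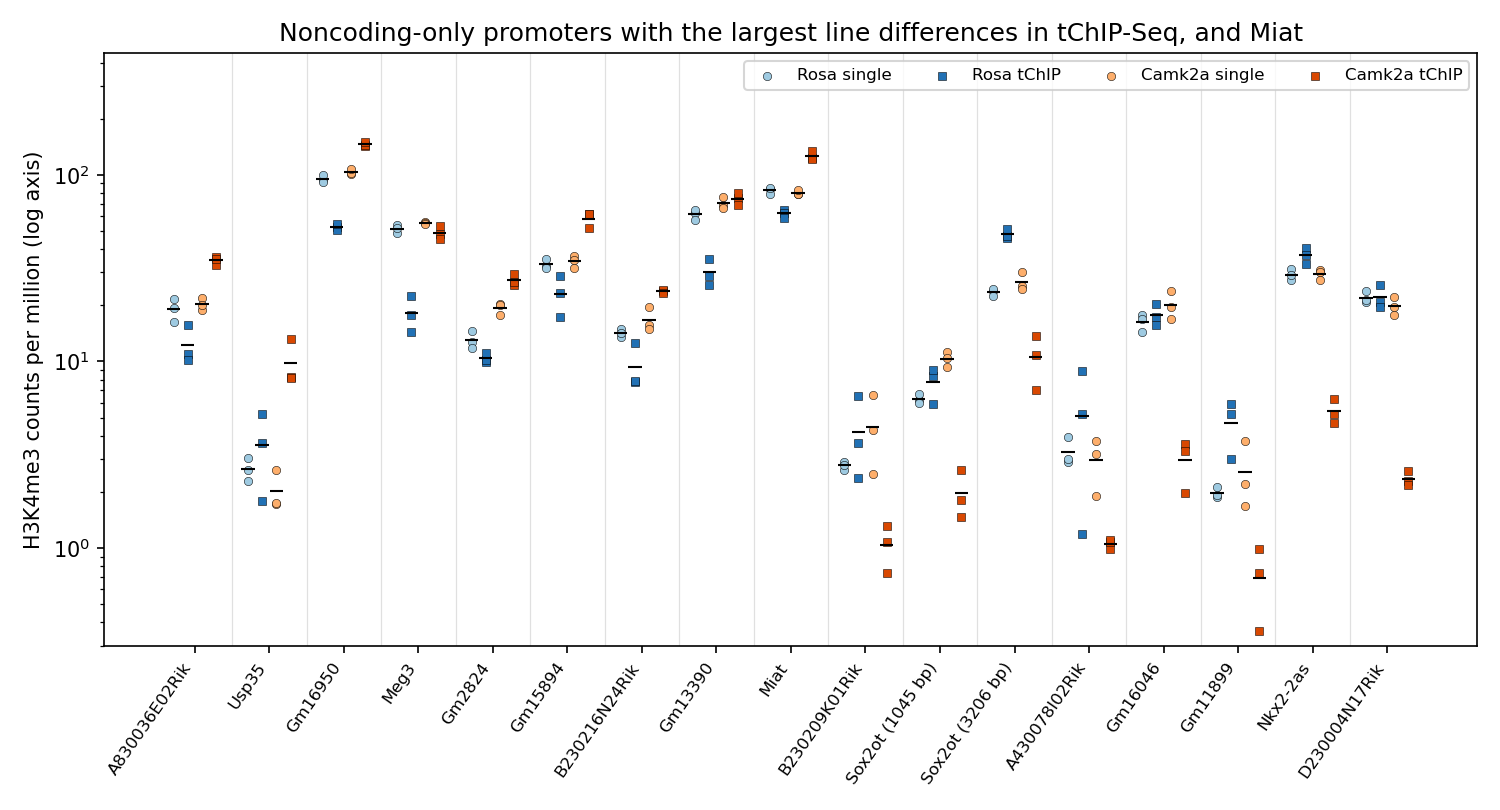
H3K4me3 level (CPM, log axis) in each of the 12 libraries at the 8 promoters with the largest called differences in each direction between the lines in tChIP-Seq, and at Miat; circles are single ChIP-Seq, squares tChIP-Seq, blue Rosa and orange Camk2a H2B-FLAG, and each short line is the mean of 3 libraries. In the 9 promoters on the left every Camk2a tChIP-Seq library lies above every Rosa tChIP-Seq library, and in the 8 on the right below.

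Among the promoters that rose, Meg3 is the maternally expressed long noncoding RNA of the imprinted Dlk1-Dio3 locus. Its region (chr12:110779194-110781232) had 17.7, 14.3 and 22.3 CPM in Rosa H2B-FLAG and 53.1, 48.4 and 45.3 CPM in Camk2a H2B-FLAG tChIP-Seq. The log2 ratio was 1.45 ± 0.15 (SE, adjusted p = 1.97e-13). Without FLAG selection the lines had 48.8, 53.6 and 51.9 CPM and 56.1, 55.1 and 54.3 CPM, so the Rosa H2B-FLAG tChIP-Seq libraries stood apart as the low group while the other 3 groups lay between 45.3 and 56.1 CPM. Miat, also called Gomafu, is a nuclear RNA of neurons, and its promoter (chr5:112654380-112658399) had 64.7, 62.6 and 59.0 CPM in Rosa and 123, 135 and 122 CPM in Camk2a H2B-FLAG tChIP-Seq. This gave a log2 ratio of 1.02 ± 0.09 (SE, adjusted p = 1.83e-17). Single ChIP-Seq of Miat gave 83.9, 79.4 and 85.6 CPM and 79.3, 78.7 and 83.0 CPM, a range that overlaps between the lines.

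Gm16950 (chr13:10357229-10360896), a lincRNA whose nearest protein-coding TSS, 478900 bp away, is that of the muscarinic receptor gene Chrm3, had 52.7, 50.7 and 54.5 CPM in Rosa and 143, 144 and 149.9 CPM in Camk2a H2B-FLAG tChIP-Seq. The libraries of each line were close together and the difference was 1.48 ± 0.09 (SE, adjusted p = 1.05e-25) on the log2 scale. A830036E02Rik (chr11:99278320-99280052), which starts on the opposite strand inside a protein-coding gene 3521 bp from the TSS of the keratin gene Krt12, had 11.0, 10.1 and 15.7 CPM against 36.4, 32.8 and 35.4 CPM. On the log2 scale, this was 1.53 ± 0.18 (SE, adjusted p = 1.9e-11). Here all 3 tagged-neuron libraries were above every other library of the study, since single ChIP-Seq lay between 16.4 and 21.9 CPM in both lines.

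Gm13390 (chr2:7314433-7318206), 312085 bp from the TSS of Celf2, a regulator of RNA splicing, had 35.5, 25.6 and 28.9 CPM against 74.8, 68.6 and 80.3 CPM. Its log2 ratio was 1.30 ± 0.12 (SE, adjusted p = 1.04e-15). Gm15894 (chr8:113278150-113279791), 11552 bp from that of the cytokine gene Il34, had 17.2, 23.3 and 28.9 CPM against 51.8, 61.3 and 61.9 CPM. The fitted log2 ratio was 1.36 ± 0.14 (SE, adjusted p = 1.07e-13). Both groups were apart in each case, although the Rosa H2B-FLAG libraries of Gm15894 spread widely. At Gm13390, single ChIP-Seq gave 62.6, 65.1 and 57.3 CPM in Rosa and 76.1, 69.2 and 66.3 CPM in Camk2a H2B-FLAG. There the Rosa H2B-FLAG tChIP-Seq libraries stood apart as the low group, and Camk2a H2B-FLAG tChIP-Seq overlapped single ChIP-Seq of its line. Gm2824 (chr15:24955477-24957403) had 9.91, 10.1 and 11.2 CPM against 25.6, 26.7 and 29.5 CPM. The log2 ratio was 1.39 ± 0.20 (SE, adjusted p = 6.11e-09). It is the one promoter called higher in Camk2a H2B-FLAG in single ChIP-Seq as well. B230216N24Rik (chr1:99943144-99944836), which starts inside a protein-coding gene on the same strand, had 12.5, 7.75 and 7.87 CPM against 23.9, 24.2 and 23.2 CPM. This gave a log2 ratio of 1.31 ± 0.21 (SE, adjusted p = 1.67e-07).

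The region at Usp35 (chr7:104473786-104474486), named for a deubiquitinase gene that RefSeq classes as protein-coding, rested on few reads. It had 7, 3 and 8 counts in Rosa and 40, 23 and 22 in Camk2a H2B-FLAG tChIP-Seq, or 3.65, 1.79 and 5.25 CPM against 13.1, 8.30 and 8.10 CPM. On the log2 scale, this was 1.49 ± 0.35 (SE, adjusted p = 0.000218). A pair of promoters on chromosome 7 in the imprinted domain of Ndn also rose. A330076H08Rik (chr7:69125497-69127365), chosen after its values were seen and nearest to the TSS of Ndn, had 9.91, 9.54 and 9.84 CPM against 21.7, 20.6 and 18.4 CPM. Its log2 ratio was 1.05 ± 0.21 (SE, adjusted p = 2.76e-05). A230006K03Rik (chr7:68454643-68456615) had 8.87, 5.96 and 16.4 CPM against 16.1, 22.7 and 25.05 CPM. The fitted log2 ratio was 1.06 ± 0.23 (SE, adjusted p = 8.08e-05). Its groups overlapped.

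Among the promoters that fell, the change was deepest at D230004N17Rik (chr9:41282901-41284696), a lincRNA gene 104128 bp from the nearest protein-coding TSS. It had 20.9, 25.6 and 19.7 CPM in Rosa and 2.30, 2.165 and 2.58 CPM in Camk2a H2B-FLAG tChIP-Seq, from 40, 43 and 30 and 7, 6 and 7 counts, and the log2 ratio was -3.20 ± 0.28 (SE, adjusted p = 1.01e-16). Without FLAG selection the lines had 23.8, 20.8 and 21.3 CPM and 22.2, 17.7 and 19.7 CPM, so only the tagged-neuron libraries were low. Gm16046 (chr17:13819069-13820519) showed the same order, with 17.2, 20.3 and 15.7 CPM against 1.97, 3.61 and 3.32 CPM in tChIP-Seq and -2.57 ± 0.29 (SE, adjusted p = 1.92e-12), while its single ChIP-Seq libraries lay between 14.3 and 23.9 CPM.

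Nkx2-2as is an antisense transcript at Nkx2-2, the homeobox factor of the ventral neural tube and of oligodendrocyte differentiation. Its region (chr2:147008901-147010849) lay 1148 bp from the Nkx2-2 TSS, just past the distance that the rule excludes. It had 33.4, 40.6 and 37.4 CPM in Rosa and 5.25, 4.69 and 6.26 CPM in Camk2a H2B-FLAG tChIP-Seq. The log2 ratio was -2.76 ± 0.20 (SE, adjusted p = 2.16e-20). The peak over the Nkx2-2 TSS, 154 bp away, changed by -2.75, so the value at the antisense start cannot be told apart from that of the coding promoter. Sox2ot is the long noncoding RNA that overlaps Sox2, a factor of neural stem cells and glia. Of its promoter regions, the wider (chr3:34561532-34564737) had 45.9, 47.1 and 51.2 CPM against 10.8, 13.7 and 7.00 CPM. This gave a log2 ratio of -2.171 ± 0.17 (SE, adjusted p = 2.86e-19). The narrower and more upstream one (chr3:34459148-34460192) had 8.35, 8.95 and 5.90 CPM against 2.62, 1.80 and 1.47 CPM. On the log2 scale, this was -1.94 ± 0.39 (SE, adjusted p = 2.45e-05). Both fell, and in both every tagged-neuron library was below every other library.

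The remaining promoters of the 8 that fell most had few counts. Gm11899 (chr4:24719701-24720101) had 10, 5 and 9 counts in Rosa and 3, 1 and 2 in Camk2a H2B-FLAG tChIP-Seq, a ratio of 0.143 per total count with an exact 95% interval from 0.0479 to 0.360, which covers counting error only, and a fitted log2 ratio of -2.64 ± 0.57 (SE, adjusted p = 7.27e-05). A430078I02Rik (chr6:86430432-86430933) had 17, 2 and 8 against 3, 3 and 3 counts, a ratio of 0.191 (0.0790 to 0.418), and -2.26 ± 0.53 (SE, adjusted p = 0.000281). B230209K01Rik (chr1:122984042-122984602) had 7, 4 and 10 against 4, 3 and 2 counts, a ratio of 0.246 (0.0990 to 0.559), and -1.90 ± 0.55 (SE, adjusted p = 0.00304). A430078I02Rik was no longer called without Rosa H2B-FLAG tChIP-Seq replicate 1 (log2 ratio -1.51), and B230209K01Rik was no longer called without Rosa H2B-FLAG tChIP-Seq replicate 3 (-1.49), without Camk2a H2B-FLAG tChIP-Seq replicate 3 (-1.72) or with DESeq2 (-1.98).

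**Figure D3:**
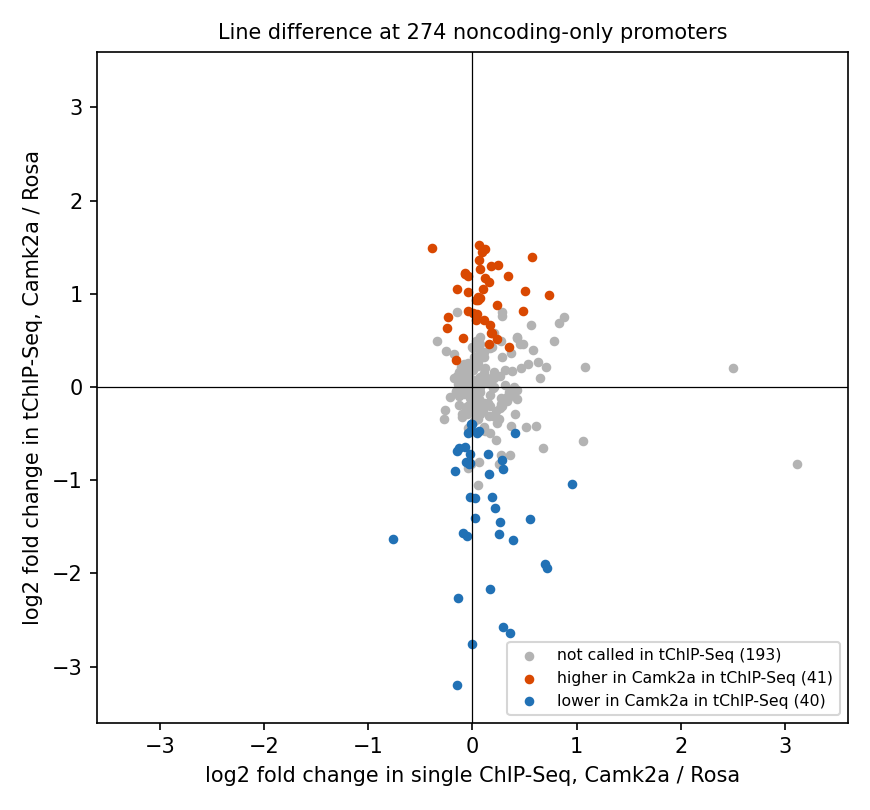
log2 ratio of Camk2a over Rosa H2B-FLAG for single ChIP-Seq (x axis) and tChIP-Seq (y axis) at the 274 noncoding-only promoters; each point is 1 promoter, coloured by its call in tChIP-Seq. The 81 called promoters spread from -3.20 to 1.53 along the y axis, and 73 of them lie within 0.5 of zero along the x axis.

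The genes were also grouped by kind. Of 13 nuclear and imprinted long noncoding RNAs, 4 had a noncoding-only promoter: Meg3 and Miat rose, Nespas fell and Airn was not called, where 17.0% of all regions rose and 14.6% fell. Nespas, an antisense transcript of the imprinted Gnas locus (chr2:174120393-174121376), had 19.8, 10.7 and 13.8 CPM against 3.94, 4.33 and 6.63 CPM. Its log2 ratio was -1.59 ± 0.28 (SE, adjusted p = 1.04e-06). Without FLAG selection Nespas had 7.39, 7.42 and 5.73 CPM in Rosa and 6.65, 7.40 and 5.98 CPM in Camk2a H2B-FLAG. The Rosa H2B-FLAG tChIP-Seq libraries thus stood apart as the high group, and Camk2a H2B-FLAG tChIP-Seq overlapped single ChIP-Seq of its line. Airn, the paternally expressed RNA that silences Igf2r in cis (chr17:12934038-12935719), had 36.0, 32.2 and 38.1 CPM against 24.9, 27.4 and 33.5 CPM, which overlap, with -0.31 ± 0.15 (SE, adjusted p = 0.0868). Of 32 genes beside developmental regulators, 2 had such promoters, Sox2ot and Nkx2-2as, and their 3 regions all fell, where 14.6% of all regions did.

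The snoRNA host genes carry in their introns the guides for ribosomal RNA modification. Of 18 listed, Snhg4, Snhg5, Snhg7 and Snhg12 had a noncoding-only promoter, and 0 of 4 passed the test in edgeR or in DESeq2 (1 and 0 at an unadjusted p under 0.05), at changes from -0.25 to 0.09 on the log2 scale. Over all regions, edgeR called 31.6% in either direction. Snhg5 (chr9:88416021-88418579) had 56.9, 63.2 and 51.8 CPM against 52.5, 55.6 and 59.3 CPM. The fitted log2 ratio was -0.04 ± 0.11 (SE). Snhg7 (chr2:26494394-26495990) had 41.2, 53.1 and 38.7 CPM against 44.9, 43.7 and 49.0 CPM. The log2 ratio was 0.05 ± 0.12 (SE). Snhg12 (chr4:131864322-131866359) had 53.7, 65.6 and 67.6 CPM against 45.6, 53.8 and 56.0 CPM. This gave a log2 ratio of -0.25 ± 0.11 (SE, adjusted p = 0.0576). Snhg4 (chr18:35712442-35713924) had 34.96, 35.8 and 41.3 CPM against 42.6, 42.9 and 32.0 CPM. On the log2 scale, this was 0.09 ± 0.13 (SE). Over all 14 promoters whose gene holds a snoRNA, listed or not, 0 were called in edgeR or DESeq2 (2 and 0 at an unadjusted p under 0.05) and the median log2 ratio was -0.041, beside a call in either direction at 81 of 274 and at 31.6% of all regions. Against single ChIP-Seq, Snhg12 was lower in tChIP-Seq of Camk2a H2B-FLAG, at -0.44 ± 0.09 (SE, adjusted p = 2.84e-06). Snhg4 was higher in tChIP-Seq, at 0.36 ± 0.13 (SE, adjusted p = 0.00891) in Rosa and 0.33 ± 0.11 (SE, adjusted p = 0.00889) in Camk2a H2B-FLAG. Both calls of Snhg4 were near the threshold, and its Camk2a H2B-FLAG groups overlapped.

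Promoters of microRNA hosts were called higher at 3 and lower at 6 of 19 in the line comparison of tChIP-Seq, or 15.8% and 31.6%, beside 17.0% and 14.6% of all regions. The 6 include D230004N17Rik and both promoters of Sox2ot, described above. A330023F24Rik, host of miR-29b-2 and miR-29c, had 101, 78.7 and 110.2 CPM in Rosa and 126, 114 and 111 CPM in Camk2a H2B-FLAG tChIP-Seq at chr1:196802059-196805378, with 0.29 ± 0.08 (SE, adjusted p = 0.00364). This small difference was no longer called without Rosa H2B-FLAG tChIP-Seq replicate 2 (0.16), without Camk2a H2B-FLAG tChIP-Seq replicate 1 (0.22) or with DESeq2 (0.28). Single ChIP-Seq of A330023F24Rik gave 139, 135 and 134 CPM in Rosa and 122, 127 and 119 CPM in Camk2a H2B-FLAG. Every Rosa tChIP-Seq library was thus below every other library, and Camk2a tChIP-Seq overlapped single ChIP-Seq of its line. 1700016P03Rik, whose transcript holds miR-212 and miR-132, microRNAs known for induction by neuronal activity, had 79.3, 74.6 and 81.4 CPM against 75.8, 82.6 and 84.7 CPM at chr11:74985507-74988650, with 0.05 ± 0.09 (SE, adjusted p = 0.694). D030055H07Rik, which holds miR-135a-1, fell from 14.1, 19.1 and 20.3 CPM to 4.59, 6.13 and 6.26 CPM at chr9:106050930-106051918, with -1.63 ± 0.25 (SE, adjusted p = 5.49e-08), and Meg3, which holds miR-770, is described above. The hosts 1700016P03Rik and D030055H07Rik were chosen after their values were seen.

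The calls differed with sequence composition. Over all regions the ratio of observed to expected CpG was split into 3 classes of equal size. The 107 promoters in the lowest class (ratio under 0.506) had 29 called higher and 15 lower, or 27.1% and 14.0%, while the 80 in the highest (over 0.655) had 4 higher and 12 lower, or 5.0% and 15.0%. Among all regions, 26.9% of the lowest and 8.89% of the highest class were called higher, a pattern like that of the noncoding start sites. The 41 promoters that rose had a median CpG ratio of 0.442 and a median width of 1869 bp, against 0.548 and 1345 bp for the 40 that fell and 0.601 and 1322 bp for the 193 others. From the narrowest to the widest of 3 such classes of width, 8.59%, 16.2% and 31.7% were called higher. Over all regions it was 9.50%, 10.7% and 30.8%. By total count, 11.8%, 17.1% and 21.2% were called higher, beside 11.6%, 15.3% and 24.2%. Which of these properties goes with the calls by itself was not tested.

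**Figure D4:**
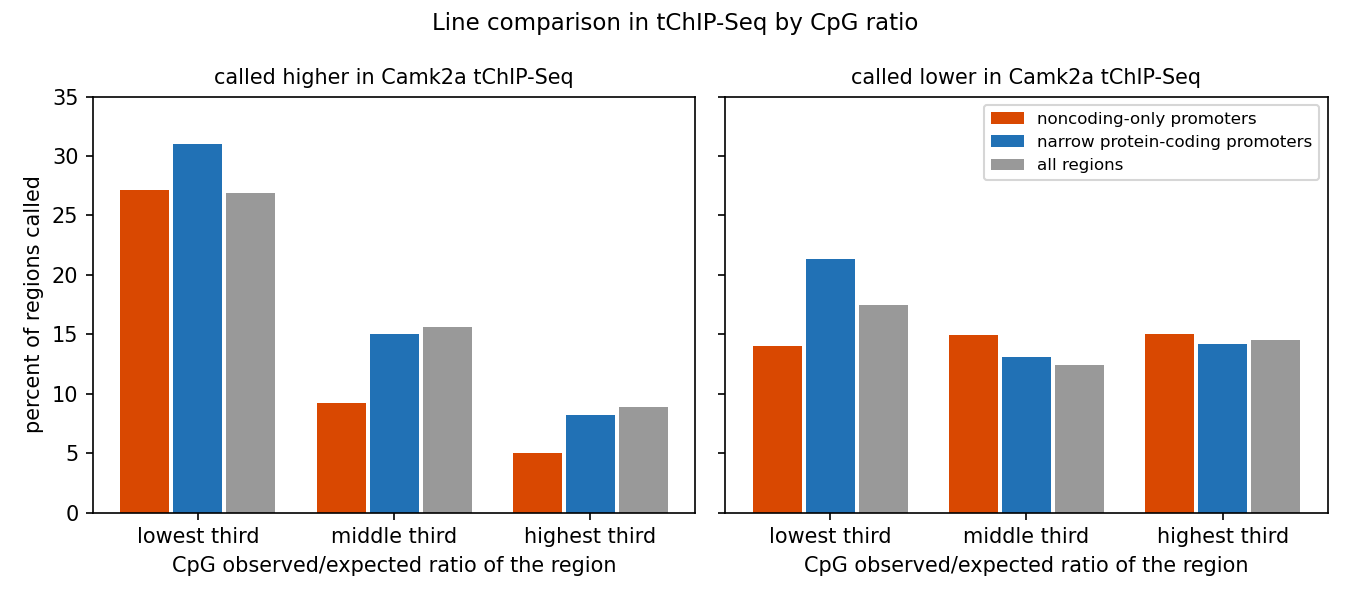
Percent of regions called higher (left) or lower (right) in Camk2a than in Rosa H2B-FLAG tChIP-Seq, in 3 equal classes of the CpG observed/expected ratio, for noncoding-only promoters, narrow protein-coding promoters and all regions. The share called higher drops from 27.1% in the lowest to 5.0% in the highest class at noncoding-only promoters and from 26.9% to 8.89% over all regions.

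Calls were also counted by position. Of 51 promoters 1 to 5 kb from a protein-coding TSS, 9 were higher and 5 lower in Camk2a H2B-FLAG tChIP-Seq (17.6% and 9.80%), of 159 at 5 to 50 kb, 17 and 27 (10.7% and 17.0%), and of 64 beyond 50 kb, 15 and 8 (23.4% and 12.5%), beside 17.0% and 14.6% of all regions. Most promoters, 223, lay outside protein-coding genes, with 27 higher and 31 lower (12.1% and 13.9%), 43 started inside one on the opposite strand, with 12 and 7 (27.9% and 16.3%), and 8 inside one on the same strand, with 2 and 2. Whether these classes differ was not tested. The distance of the nearest listed region at a protein-coding TSS had a median of 34494 bp. Across the 145 promoters for which it was 5 to 50 kb, Pearson's r of the 2 log2 ratios was 0.165, across the 104 beyond 50 kb it was 0.222, and across the 25 under 5 kb it was 0.649, which rests on Nkx2-2as and was 0.185 without it. These are descriptions across regions counted in the same libraries. Of the 81 called promoters, 28 (34.6%) had a neighbour that was called too, beside 31.6% of all regions called in either direction. The direction was the same at 19 and opposite at 9.

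Single ChIP-Seq of the lines compares the same tissue without selection for tagged chromatin. Of the marker regions given above, 1 of excitatory neurons was called higher in it and 1 of oligodendrocytes lower in Camk2a H2B-FLAG. The part of such differences in the values below was not tested. Here 7 of the 274 promoters were higher and 1 lower in Camk2a H2B-FLAG, or 2.55% and 0.365%, beside 0.928% and 1.22% of all regions, and the median was 0.068 beside 0.001. The count depends on settings: it ranged from 3 to 6 higher when 1 library was left out (3 without Camk2a replicate 2 or without Rosa replicate 3, 4 without Camk2a replicate 1 or without Rosa replicate 2), and DESeq2 called 3 higher and 0 lower (6 lower at an unadjusted p under 0.05, against 13 in edgeR). All 3 Camk2a libraries lay above the 3 Rosa libraries at 53 promoters, 19.3% beside 12.3% of all regions, and below at 16, 5.84% beside 12.7%. In the lowest of 3 equal classes of total count the median was 0.214 for noncoding-only promoters and 0.189 for all regions, and in the highest it was -0.043 and -0.057. Total counts also differed between the groups, from 4063200 to 4233144 in Camk2a and from 6316125 to 8644574 in Rosa, and their part in this was not tested.

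By size, the first among the 7 was Speer7-ps1 (chr5:15186301-15186835), a pseudogene of a rodent gene family with many copies, which had 6, 1 and 2 counts in Rosa and 17, 16 and 14 in Camk2a H2B-FLAG single ChIP-Seq. The ratio per total count was 9.28, with an exact 95% interval for counting error from 4.49 to 21.5, and the log2 ratio was 3.12 ± 0.42 (SE, adjusted p = 5.17e-09). 2610307P16Rik (chr13:28976615-28977579), 65432 bp from the TSS of the transcription factor gene Sox4, had 5.94, 6.10 and 5.07 CPM against 13.0, 10.7 and 12.5 CPM. Its log2 ratio was 1.06 ± 0.18 (SE, adjusted p = 5.47e-06). Gm11837 (chr4:14857289-14858239) had 6.52, 9.09 and 8.67 CPM against 17.2, 13.4 and 16.9 CPM, with 0.95 ± 0.16 (SE, adjusted p = 2.45e-06), while in tChIP-Seq it fell from 29.7, 23.9 and 28.9 CPM in Rosa to 14.8, 13.0 and 12.2 CPM in Camk2a H2B-FLAG, with -1.04 ± 0.18 (SE, adjusted p = 1.29e-06). The upstream Sox2ot promoter was also higher in single ChIP-Seq, with 6.23, 5.98 and 6.71 CPM against 9.35, 11.2 and 10.5 CPM and 0.72 ± 0.18 (SE, adjusted p = 0.00658). This call was lost when any one of the 6 libraries was left out, at log2 ratios from 0.66 to 0.79, and with DESeq2 (0.72).

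The promoter called lower was that of 2610005L07Rik (chr8:20019713-20020564), with 75.2, 72.6 and 73.8 CPM in Rosa against 62.8, 61.1 and 60.1 CPM in Camk2a H2B-FLAG and -0.27 ± 0.07 (SE, adjusted p = 0.00447). It was no longer called when any one of the 6 libraries was left out, at log2 ratios from -0.29 to -0.26, or with DESeq2 (-0.27). Of the 81 promoters called in tChIP-Seq, 1 was called in the same and 2 in the opposite direction in single ChIP-Seq, and their absolute log2 ratio had a median of 0.99 in the former and 0.14 in the latter. Over all regions, 3062 were higher in tChIP-Seq, of which 41 were higher and 16 lower in single ChIP-Seq. Of the 2620 that were lower, 33 were lower and 35 higher there.

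tChIP-Seq against single ChIP-Seq of the same line compares the tagged with the total chromatin. The paper proposes technical biases as possible causes of such differences in Rosa H2B-FLAG. They include longer DNA after FLAG purification and an effect of FLAG on the later precipitation. Its own quantitative work therefore rests mainly on tChIP-Seq of both lines. Rosa also had fewer total counts with FLAG selection, 1457261 to 1828371, beside 6316125 to 8644574 without it. What part such biases or depth have in the values below was not tested. In Rosa H2B-FLAG, where nearly all cells carry the tag, 85 promoters were higher in tChIP-Seq and 33 lower, or 31.0% and 12.0%, beside 24.7% and 22.5% of all regions and 20.9% and 26.5% of narrow protein-coding promoters. In Camk2a H2B-FLAG, 80 were higher and 45 lower, or 29.2% and 16.4%, beside 25.3% and 22.6%, and DESeq2 called 53 and 23. All 3 tChIP-Seq libraries lay above the single ChIP-Seq libraries at 118 promoters in Rosa (43.1%, beside 30.2% of all regions) and below at 49 (17.9%, beside 32.1%). In Camk2a they lay above at 90 (32.8%, beside 31.1%) and below at 64 (23.4%, beside 30.6%). Median log2 ratios were 0.22 and 0.081, beside -0.075 and -0.072 at narrow protein-coding promoters. These comparisons share no library between the lines, and 38 promoters were higher in both (44.7% of the 85 and 47.5% of the 80), 10 lower in both (30.3% of the 33 and 22.2% of the 45), 5 higher in Rosa and lower in Camk2a H2B-FLAG, and 9 the reverse. Over all regions, those higher in both made up 41.2% and 40.2% of the lists of Rosa and Camk2a, and those lower in both 42.8% and 42.7%. Of the 274 promoters, 13.9% were thus higher and 3.65% lower in both lines, beside 10.2% and 9.63% of all regions. The line comparison in tChIP-Seq uses tChIP-Seq libraries of both of these comparisons, so its values are not independent of them. Of the 41 promoters higher in it, 15 (36.6%) were lower and 4 (9.76%) higher than single ChIP-Seq in Rosa. In Camk2a H2B-FLAG, 32 (78.0%) of these 41 were higher. Of the 40 lower in it, 23 (57.5%) were higher in Rosa, and 19 (47.5%) were lower and 2 (5.00%) higher in Camk2a H2B-FLAG.

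The direction differed with the level of the region. Of the 136 noncoding-only promoters in the lowest of the 3 classes of total count, 46.3% were higher and 2.94% lower in Rosa H2B-FLAG tChIP-Seq, and of the 33 in the highest, 0 were higher in edgeR and 48.5% lower. All regions of these classes gave 48.2% and 1.47%, and 4.37% and 51.6%, which puts noncoding-only promoters near other regions of like counts in both directions of the lowest class. In Camk2a H2B-FLAG the shares were 34.6% and 11.0% in the lowest class, and 15.2% and 24.2% in the highest. All regions gave 37.0% and 10.7%, and 18.0% and 34.0%. From the lowest to the highest class, 65.1%, 22.0% and 3.81% of narrow protein-coding promoters were higher in Rosa. Noncoding-only promoters gave 46.3%, 21.0% and 0 in edgeR, so their larger total share was not seen within a class. In the middle and highest classes, 13.2% and 48.6% against 12.4% and 48.5% were lower, and in the lowest the noncoding share was larger. In Camk2a, 38.5%, 20.3% and 15.2% of coding and 34.6%, 26.7% and 15.2% of noncoding-only promoters were higher.

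**Figure D5:**
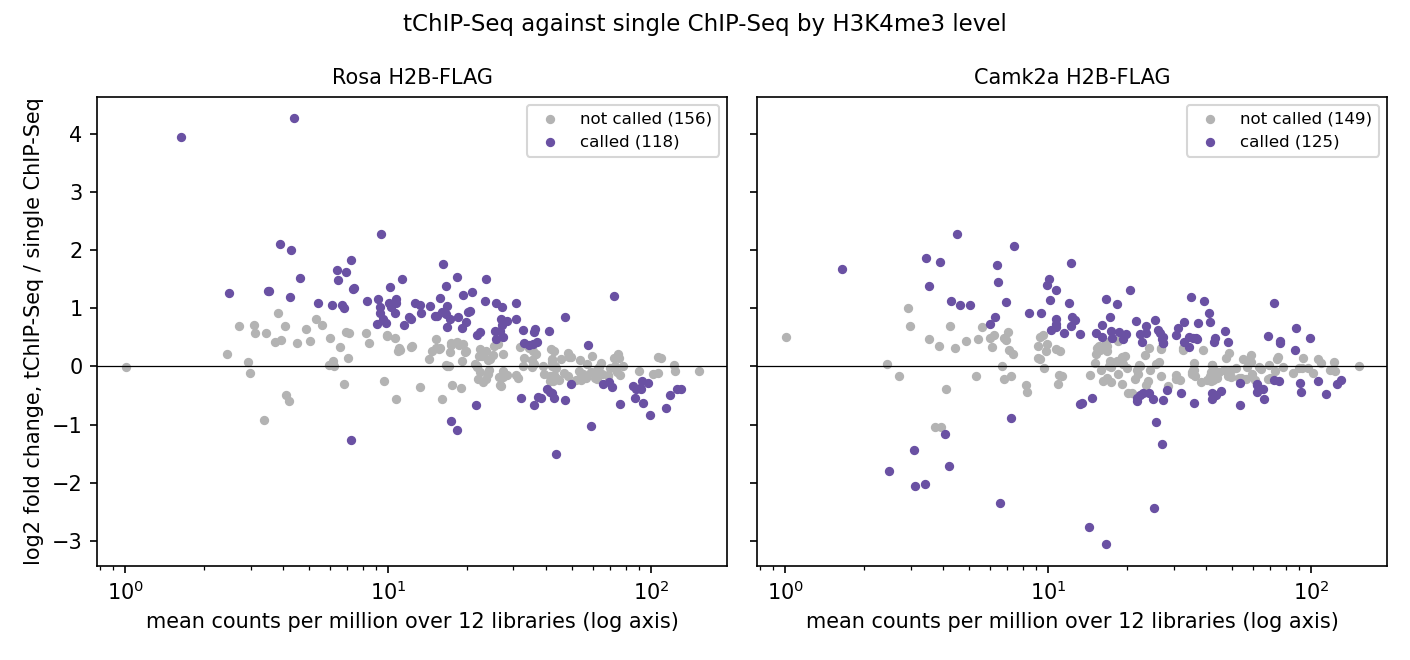
log2 ratio of tChIP-Seq over single ChIP-Seq at the 274 noncoding-only promoters against their mean level (CPM over 12 libraries, log axis), in Rosa H2B-FLAG (left) and Camk2a H2B-FLAG (right); purple points were called at an adjusted p under 0.01. At low levels most called points of Rosa H2B-FLAG lie above zero (85 higher and 33 lower in all), and the lowest points of Camk2a H2B-FLAG reach -3.06.

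In Rosa H2B-FLAG, Speer7-ps1 had 6, 1 and 2 counts in single ChIP-Seq and 15, 15 and 14 in tChIP-Seq, a ratio of 22.0 per total count (10.6 to 51.4), with a log2 ratio of 4.27 ± 0.43 (SE, adjusted p = 9.28e-22). Gm16551 (chr9:74696654-74696894), 12834 bp from the TSS of the homeobox gene Onecut1, had 1, 1 and 1 against 5, 2 and 6 counts, a ratio of 19.5 (5.37 to 107), and 3.94 ± 0.74 (SE, adjusted p = 6.17e-07). Gm16764 (chr7:139788809-139789609), 1711 bp from the TSS of the homeobox gene Nkx1-2, had 3.91, 3.47 and 3.44 CPM in single ChIP-Seq and 18.8, 18.5 and 14.4 CPM in tChIP-Seq. The fitted log2 ratio was 2.27 ± 0.23 (SE, adjusted p = 1.01e-20). All libraries of tChIP-Seq lay above those of single ChIP-Seq at each of them.

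The promoters that fell most in Rosa H2B-FLAG tChIP-Seq were those of Meg3, at -1.51 ± 0.14 (SE, adjusted p = 1.15e-25) on the log2 scale, of Gm17589 (chr7:19885943-19886564), 8830 bp from the TSS of the activity-induced factor Fosb, and of A230006K03Rik. Gm17589 had 9.41, 10.2 and 8.83 CPM in single ChIP-Seq and 3.13, 4.77 and 3.94 CPM in tChIP-Seq. The log2 ratio was -1.27 ± 0.30 (SE, adjusted p = 8.79e-05). It was lower in Camk2a H2B-FLAG too, with 9.11, 10.3 and 10.7 CPM and 5.25, 6.50 and 4.42 CPM and -0.89 ± 0.24 (SE, adjusted p = 0.000922), a call that was lost without Camk2a tChIP-Seq replicate 3 (-0.78) or with DESeq2 (-0.90). A230006K03Rik had 19.8, 23.4 and 21.9 CPM and 8.87, 5.96 and 16.4 CPM. This gave a log2 ratio of -1.09 ± 0.19 (SE, adjusted p = 1.2e-07). In Camk2a H2B-FLAG neither Meg3, at -0.17 ± 0.09 (SE, adjusted p = 0.104), nor A230006K03Rik, at 0.09 ± 0.15 (SE, adjusted p = 0.611), was called.

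In Camk2a H2B-FLAG, the largest rises over single ChIP-Seq were at Usp35, with 1.72, 2.62 and 1.74 CPM and 13.1, 8.30 and 8.10 CPM and a log2 ratio of 2.27 ± 0.30 (SE, adjusted p = 1.81e-11), and at 9530036O11Rik (chr5:28784320-28785201), which starts inside a protein-coding gene 8440 bp from the TSS of Shh, a morphogen of the developing brain. 9530036O11Rik had 4.18, 2.62 and 3.49 CPM and 14.8, 14.1 and 14.4 CPM. On the log2 scale, this was 2.06 ± 0.24 (SE, adjusted p = 6.89e-14). It rose in Rosa H2B-FLAG as well, from 3.48, 3.23 and 3.27 CPM to 7.30, 10.1 and 7.87 CPM. Its log2 ratio was 1.34 ± 0.29 (SE, adjusted p = 2.08e-05). Gm16175 (chr7:20394647-20395157), 1313 bp from the TSS of Bcl3, had 2.46, 1.67 and 1.495 CPM and 7.87, 5.77 and 7.00 CPM. The fitted log2 ratio was 1.86 ± 0.33 (SE, adjusted p = 4e-07). The deepest falls were at D230004N17Rik, at -3.06 ± 0.26 (SE, adjusted p = 1.59e-23), Gm16046, at -2.77 ± 0.24 (SE, adjusted p = 9.76e-22), and Nkx2-2as, at -2.44 ± 0.19 (SE, adjusted p = 2.75e-26) on the log2 scale. Single ChIP-Seq of Nkx2-2as in that line gave 30.8, 30.1 and 27.2 CPM.

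The interaction asks whether the difference between the lines was itself different in tChIP-Seq and single ChIP-Seq, over all 12 libraries. It was called at 28 promoters as more positive in tChIP-Seq and at 42 as more negative, or 10.2% and 15.3%, beside 13.7% and 13.2% of all regions, and the median was -0.082 beside -0.003. The largest positive values were at Usp35, at 1.88 ± 0.49 (SE, adjusted p = 0.000733), A830036E02Rik, at 1.46 ± 0.22 (SE, adjusted p = 4.4e-09), and Meg3, at 1.35 ± 0.17 (SE, adjusted p = 1.64e-12). The largest negative values were at Speer7-ps1, at -3.93 ± 0.54 (SE, adjusted p = 6.1e-11), D230004N17Rik, at -3.07 ± 0.32 (SE, adjusted p = 6.93e-18), and Gm11899, at -3.04 ± 0.67 (SE, adjusted p = 5.22e-05). At Speer7-ps1 the group that stood apart was single ChIP-Seq of Rosa H2B-FLAG, with 9 counts in 3 libraries, whereas at D230004N17Rik it was tChIP-Seq of Camk2a H2B-FLAG.

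Per length, the noncoding-only promoter with the highest level was that of 2610005L07Rik, which had 72.9 CPM per kb over the 12 libraries. Next were 2900052L18Rik (chr11:120091123-120092930) at 62.9, Spata5l1 (chr2:122455935-122457895) at 62.3, 1700020I14Rik (chr2:119419930-119421810) at 48.6 and 5430417L22Rik (chr2:118570685-118573824) at 48.4. Between the lines in tChIP-Seq, edgeR called 31.6% of all regions. Of the 5 named here, 0 were called by edgeR or DESeq2 (2 in each at an unadjusted p under 0.05), with log2 ratios from -0.35 to 0.23, and 2610005L07Rik had -0.35 ± 0.12 (SE, adjusted p = 0.0110). 5430417L22Rik, the one with the most counts, had 151, 150.3 and 157 CPM in Rosa and 145, 149.8 and 145 CPM in Camk2a H2B-FLAG tChIP-Seq. The log2 ratio was -0.05 ± 0.07 (SE, adjusted p = 0.569). 2610005L07Rik narrowly missed the threshold and was called lower in 6 edgeR alternatives, with DESeq2 size factors (log2 ratio -0.35, adjusted p = 0.00977), all 12 libraries (-0.35, adjusted p = 0.00515) or the replicate block (-0.35, adjusted p = 0.00913), and without Camk2a tChIP-Seq replicate 2 (-0.45, adjusted p = 0.00207), Rosa tChIP-Seq replicate 1 (-0.43, adjusted p = 0.00489) or Rosa tChIP-Seq replicate 3 (-0.42, adjusted p = 0.0047). In both lines, tChIP-Seq of 2900052L18Rik was below single ChIP-Seq, with -0.72 ± 0.07 (SE, adjusted p = 2.91e-22) in Rosa and -0.47 ± 0.06 (SE, adjusted p = 2.56e-11) in Camk2a H2B-FLAG, and so was 1700020I14Rik, with -0.38 ± 0.08 (SE, adjusted p = 2.79e-06) and -0.44 ± 0.07 (SE, adjusted p = 1.17e-08).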

How the data were processed

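H3K4me3 libraries from cerebral cortex were analysed as 4 groups of 3, and input and FLAG libraries were not analysed here. The authors removed reads of repeats with Bowtie2 2.1.0, mapped the rest to mm9 with Bowtie 1.0.0, removed duplicates with SAMtools (0.1.19 in the submitters' notes), called peaks with MACS and deposited whole-number counts of reads per region, made with bedtools 2.17.0 and without normalization. How peak calls were merged into 1 list of 17993 regions is not given in the sources used here. Removal of repeat reads lowers counts at promoters that hold repeats.

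Fits of 2 groups used their own 6 libraries and that of the interaction all 12, in edgeR 4.0.16 under R 4.3.3: TMM, glmQLFit and glmQLFTest, no filter, Benjamini-Hochberg adjustment over all regions, called under 0.01. The SE of a log2 ratio was derived from its F statistic as |log2 ratio|/sqrt(F). CPM values use TMM factors over the 12 libraries. Shares of counts were compared by exact permutation in scipy 1.17.1, and tables and figures were made with pandas 2.3.3, numpy 2.4.6 and matplotlib 3.10.9. The fits were tested on simulated data. A TSS was the 5′ end of a GENCODE M1 transcript on NCBIM37, which is mm9, and RefSeq classes came from GRCm38.p6 by gene identifier, symbol or synonym, with no coordinates used.

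Members and lists were chosen with earlier results of these data known. Named promoters were, in the line comparison of tChIP-Seq, the 8 called with the largest change in each direction whose groups did not overlap, 3 in each direction in the other comparisons (for the interaction without that condition), every promoter at a gene on 4 lists, and the 5 with the highest CPM per kb. Alternatives were DESeq2 1.42.0 size factors, its Wald test, at least 10 counts in every library, a threshold of 0.05, a replicate block, all 12 libraries in a single fit, no coding TSS within 5000 bp, leaving out each library and, chosen after seeing the data, leaving out genes that RefSeq classes as protein-coding. 1 listed marker gene is not reported here and was left out of its list's sums. Replicates are separate lysates, so p-values measure the spread between them. The sample titles give single ChIP-Seq and tChIP-Seq libraries of a line the same preparation number, which pairs them within lines but not across lines. Deviations from the group means correlated from 0.00525 to 0.0535 over the 6 pairs within lines. A block within lines was added for the interaction after seeing the data.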

Additional observations from a re-analysis of the deposited data

Results flagged for a closer look

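For these promoters the difference between Camk2a and Rosa H2B-FLAG in tChIP-Seq was not the same as in single ChIP-Seq, by the interaction term of edgeR at an adjusted p under 0.01 over 3 libraries in each of 4 groups. It was more positive at 28 noncoding-only promoters and more negative at 42.

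Among the named promoters, the difference of the log2 fold changes was 1.88 at Usp35, 1.46 at A830036E02Rik, 1.35 at Meg3, 1.34 at Gm16950 and 1.29 at Gm15894. It was 1.19 at A230006K03Rik, 1.11 at Gm13390, 1.07 at B230216N24Rik, 1.06 at Miat, 0.81 at Gm2824 and 0.43 at A330023F24Rik.

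Negative values were -3.93 at Speer7-ps1, -3.07 at D230004N17Rik, -3.04 at Gm11899, -2.88 at Gm16046, -2.77 at Nkx2-2as and -2.62 at B230209K01Rik. At the Sox2ot promoters they were -2.68 upstream and -2.35 at the wider region. The others were -2.15 at A430078I02Rik, -1.999 at Gm11837, -1.65 at 2610307P16Rik, -1.56 at Nespas and -1.34 at Gm16764. At Gm11837 the lines differed in opposite directions in the different kinds of ChIP-Seq, 0.95 ± 0.16 (SE, adjusted p = 2.45e-06) without and -1.04 ± 0.18 (SE, adjusted p = 1.29e-06) with FLAG selection.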

How the results depend on the processing

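Of the values of the counts and shares under the alternatives, 159 stayed near the main value (a count within 1.5 times it, a difference of shares within 1 SD) and 17 did not. The Wald test of DESeq2 gave 26 promoters higher in the line comparison of tChIP-Seq, 53 higher and 23 lower between the kinds of ChIP-Seq in Camk2a H2B-FLAG, and 3 higher and 0 lower in the line comparison of single ChIP-Seq. At a threshold of 0.05 the latter gave 18 higher and 5 lower, and the replicate block 2 lower. Leaving out 1 library gave 3 to 6 higher and 0 to 1 lower there, 33 to 38 and 35 to 40 in tChIP-Seq, 74 to 85 and 28 to 33 between the kinds of ChIP-Seq in Rosa, 67 to 74 and 35 to 39 of Camk2a H2B-FLAG, and 25 to 28 and 36 to 41 in the interaction. The cause of these moves was not tested, beyond that fewer libraries were fitted. Log2 ratios near zero changed sign when 1 library was left out, with -0.0237 to 0.198 at Snhg7, -0.0983 to 0.0335 at Snhg5 and -0.166 to 0.0155 at Spata5l1. With the replicate block, 86 were higher and 32 lower between the kinds of ChIP-Seq in Rosa and 79 and 46 in Camk2a H2B-FLAG, and 28 and 42 in the interaction, also with the block within lines. Leaving aside Snhg4, for which this was not checked, the block changed no call that the text gives for a single promoter in these 3 comparisons. Across lines the number is only a name (correlations of -0.0157 to 0.0169), and the block called 40 higher and 39 lower in tChIP-Seq. Scaling by DESeq2 size factors moved the median of all regions by less than 0.01 on the log2 scale. Depth limits the weak promoters: the lowest of 3 equal classes of total count, up to 1056 over 12 libraries, holds 136 of the 274.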

Other observations

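The width limit of 4500 bp left out 7 regions that met the rule in every other respect, and they include well-known nuclear RNAs. Neat1, the scaffold of paraspeckles (chr19:5841138-5845718, 4581 bp), had 123 ± 5.18 (SD, n = 3) CPM in Rosa and 25.01 ± 2.87 in Camk2a H2B-FLAG tChIP-Seq. This gave a log2 ratio of -2.28 ± 0.11 (SE, adjusted p = 1.26e-31). Malat1, an abundant RNA of nuclear speckles (chr19:5795386-5802620), had 364 ± 5.76 (SD, n = 3) CPM in Rosa and 313 ± 7.18 in Camk2a H2B-FLAG tChIP-Seq. On the log2 scale, this was -0.21 ± 0.05 (SE, adjusted p = 6.49e-05). These neighbouring genes on chromosome 19 thus both had less of the mark in Camk2a than in Rosa H2B-FLAG tChIP-Seq, by very different amounts. Their tChIP-Seq levels are not set against single ChIP-Seq here. A wider promoter of Sox2ot (chr3:34537026-34541991) fell as well, with -1.84 ± 0.16 (SE, adjusted p = 3.61e-17), and A930011O12Rik (chr14:65205517-65212306) rose, with 0.87 ± 0.07 (SE, adjusted p = 1.36e-17). On the inner side of the limit, the widest promoters kept were those of Miat (4020 bp) and Gm3764 (4054 bp), the latter at 0.04 ± 0.08 (SE, adjusted p = 0.699).

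A total of 8 genes had 2 noncoding-only promoters each, and in the line comparison of tChIP-Seq their values were not always alike. At Dleu2, host of the miR-15a and miR-16-1 cluster, the promoter at chr14:62265268-62268450 fell, with -0.40 ± 0.08 (SE, adjusted p = 1.54e-05), and that at chr14:62299213-62302576 had 0.01 ± 0.08 (SE, adjusted p = 0.949). At Pisd-ps2, a pseudogene, the promoter at chr17:3084154-3085207 fell, with -0.90 ± 0.17 (SE, adjusted p = 4.25e-06), and that at chr17:3081445-3083101 had 0.10 ± 0.08 (SE, adjusted p = 0.390). Whether both promoters of a gene differ from each other was not tested.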
